A study of Mus musculus with 8 samples.

Results

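The tumour necrosis factor (TNF) superfamily was followed in the gastrocnemius (a calf muscle in which fast fibres predominate) of mice with serum-transfer arthritis. Members were chosen by symbol: every gene named Tnfsf or Tnfrsf with a number, together with Tnf, Lta and Ltb. This gave 34 of the 21833 gene symbols, 14 ligands and 20 receptors. Of these, 16 (3 ligands and 13 receptors) were among the 12755 genes that passed the filter on low counts and were tested; the other 18 (11 ligands and 7 receptors) were too low to be measured. The RA+Dipy group (n = 4 mice) received serum together with daily dipyridamole (25 mg/kg, begun on day 0). The RA group (n = 4 mice) received serum without dipyridamole. Recipients in both groups were male C57BL/6J mice aged 12 weeks, injected intraperitoneally with 100 µL of pooled serum from arthritic K/BxN mice on day 0 and day 2, and muscle was collected on day 16. The sources used here do not give a vehicle for the RA mice, and muscle of mice without arthritis was not analysed here. The genotype field reads K/BxN for all 8 recipients and the treatment text names dipyridamole for all 8, so the groups were taken from the sample titles.

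Ligands of this family are mostly trimeric proteins held in the cell membrane or cut from it, and they act by clustering their receptors. Receptors with a death domain recruit adaptors that lead to caspases or to NF-kB, receptors without one bind TRAF proteins directly, and decoy receptors bind a ligand without passing on the signal. In muscle, TNF and TWEAK (the product of Tnfsf12) are known for driving loss of fibre mass through NF-kB and ubiquitin ligases that act on sarcomere proteins, and TNF is a main drug target in rheumatoid arthritis. Dipyridamole blocks nucleoside uptake, so that extracellular adenosine rises, and it is also a phosphodiesterase inhibitor.

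Library totals were 16.41, 25.37, 24.12 and 21.35 M (mega) counts in RA+Dipy replicates 1 to 4, and 50.65, 24.81, 25.67 and 16.72 M in RA replicates 1 to 4. Levels are in CPM, each count divided by the TMM-scaled size of its library in M counts, and a count of 0, which allows up to 3 counts, corresponds to 0.0591 to 0.254 CPM depending on the library (counting error only). The 6 fast-fibre markers summed to 122281 to 145078 CPM in RA+Dipy and 127100 to 162185 CPM in RA; Myh4, the fast myosin heavy chain, was among the markers. Both groups held a library that stood apart. Over 6941 genes with a mean of at least 10 CPM, 19.8% of genes in RA+Dipy replicate 1 and 41.0% in RA replicate 4 lay over 2-fold from the median of the 8 libraries, against 0.144% to 1.08% in the other 6.

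No member passed the test between the groups. The quasi-likelihood test of edgeR called 0 of the 16 tested members and 0 of the 12755 genes (0.0%) at an adjusted p under 0.05. DESeq2 and limma-voom likewise called 0 genes. At an unadjusted p under 0.05 in edgeR there were 2 members, Tnfrsf25 and Tnfrsf4, both with lower values in RA+Dipy; 2.15% of all tested genes met this in the lower direction. No member met it in the higher direction, where 1.68% of genes did. In either direction, DESeq2 gave 2 members where 5.8% of all genes met this, and limma-voom gave 1 member where 2.97% did. Fold changes, written as log2 of RA+Dipy over RA, were positive for 8 members and negative for 8, with a median of 0.07, against a median of 0.02 and 52.2% positive over all tested genes. A fold change of 0.5 or more in size was seen in 3 of 16 members (18.8%) and in 22.1% of all genes.

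**Figure D1:**
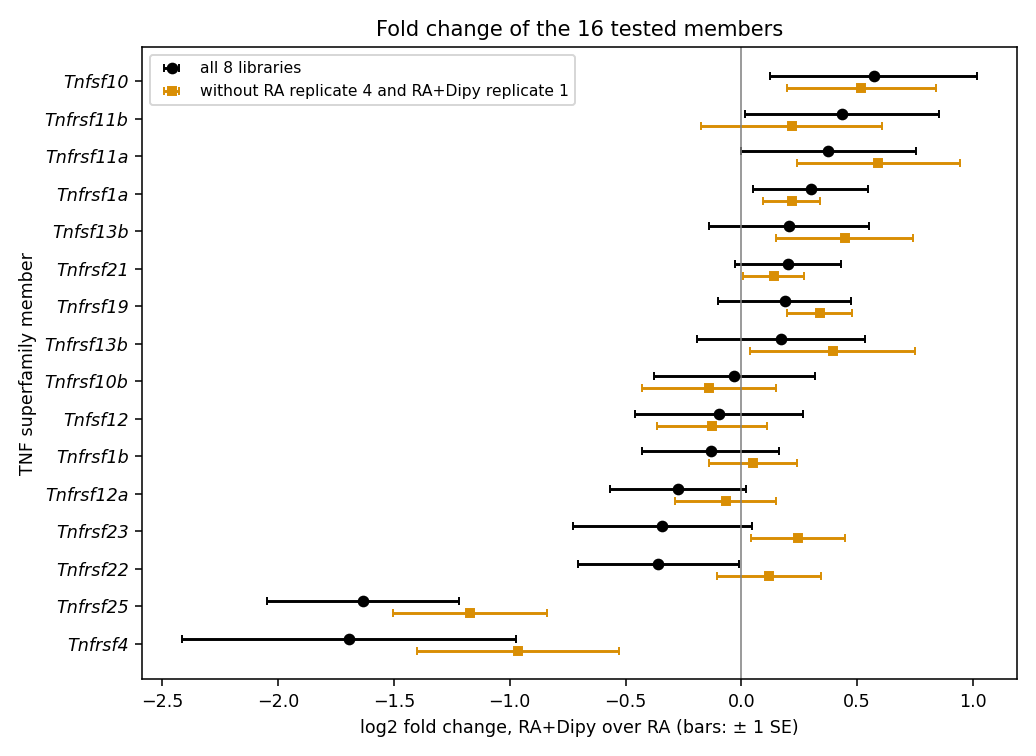
Log2 fold change of RA+Dipy over RA for each of the 16 tested members, from edgeR, with bars of 1 SE on each side, for all 8 libraries (black circles) and without RA+Dipy replicate 1 and RA replicate 4 (orange squares). With all libraries Tnfrsf25 and Tnfrsf4 sit farthest to the left, at -1.63 and -1.69, and the other members lie between -0.36 and 0.57.

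Tnfrsf25 encodes DR3, a death-domain receptor found mainly on T cells, whose ligand is TL1A, the product of Tnfsf15. It read 0.396, 0.665, 0.462 and 0.680 CPM in RA+Dipy replicates 1 to 4, against 1.60, 0.926, 1.56 and 3.04 CPM in RA replicates 1 to 4. Every RA+Dipy library lay below every RA library; 1.26% of tested genes had such a gap in the lower direction, and Tnfrsf25 was the only one of the 16 tested members with it. Means were 0.551 ± 0.143 CPM in RA+Dipy and 1.78 ± 0.895 CPM in RA (SD, n = 4 each), a log2 fold change of -1.63 (SE 0.41). In edgeR the unadjusted p was 0.00267 and the p adjusted over all tested genes 0.882. These values rest on few reads: 6, 18, 12 and 17 in RA+Dipy, against 81, 26, 40 and 36 in RA. In bulk muscle, fewer cells of a type and less RNA per cell cannot be told apart.

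The lower value of Tnfrsf25 did not rest on the library with the highest level. Without RA replicate 4 its log2 fold change was -1.27, and with the pair of libraries that stood apart left out it was -1.17. Over the 17 alternative settings tried it ran from -1.85 to -1.17 and its unadjusted p was under 0.05 in all 17. The adjusted p ran from 0.0340 to 0.998 over these settings. The single setting that called it was limma-voom with library weights, at a log2 fold change of -1.44 and an adjusted p of 0.0340; that setting called 0.172% of all genes in the lower direction and gave RA replicate 4 and RA+Dipy replicate 1 the smallest weights.

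T cell markers were read beside it. The 7 markers (of which Cd3e and Cd2 passed the count filter, and none was at 0 in all 8 libraries) summed to 1.32 to 2.50 CPM in RA+Dipy and 1.56 to 3.55 CPM in RA. Cd3e, a chain of the T cell receptor complex, read 0.924, 0.960, 1.42 and 1.32 CPM in RA+Dipy replicates 1 to 4, against 2.11, 1.10, 1.21 and 2.28 CPM in RA replicates 1 to 4. Cd2 read 0, 0.517, 0.539 and 0.560 CPM in RA+Dipy replicates 1 to 4, against 0.532, 0.498, 0.195 and 0.169 CPM in RA. Of these tested markers, 1 had a positive and 1 a negative fold change. By library the sums were 1.32, 2.10, 2.50 and 2.40 CPM in RA+Dipy replicates 1 to 4, against 2.93, 1.85, 1.56 and 3.55 CPM in RA replicates 1 to 4. The sums overlapped between the groups. The libraries that stood apart were at the ends of both the sum and Tnfrsf25, RA+Dipy replicate 1 lowest and RA replicate 4 highest. The part of T cell content in the Tnfrsf25 values was not tested. Tnfsf15, the ligand, was below the filter, with 4, 8, 1 and 8 counts in RA+Dipy and 10, 2, 2 and 6 counts in RA.

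Tnfrsf4 encodes OX40, a co-stimulatory receptor of activated T cells that signals through TRAF proteins. It read 1.32, 0.665, 0.423 and 0.760 CPM in RA+Dipy replicates 1 to 4, against 1.77, 0.570, 1.21 and 6.93 CPM in RA replicates 1 to 4. The groups overlapped, since RA replicate 2 lay below 3 of the RA+Dipy libraries, and RA replicate 4 was the highest of all 8. Means were 0.792 ± 0.379 CPM in RA+Dipy and 2.62 ± 2.91 CPM in RA (SD, n = 4 each), a log2 fold change of -1.69 (SE 0.72) with an unadjusted p of 0.0402 and an adjusted p of 0.882 in edgeR. Without RA replicate 4 the log2 fold change was -0.63 and the edgeR unadjusted p 0.219. Its unadjusted p was under 0.05 in 10 of the 17 alternatives. OX40 ligand, Tnfsf4, had a count of 0 in all 8 libraries.

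**Figure D2:**
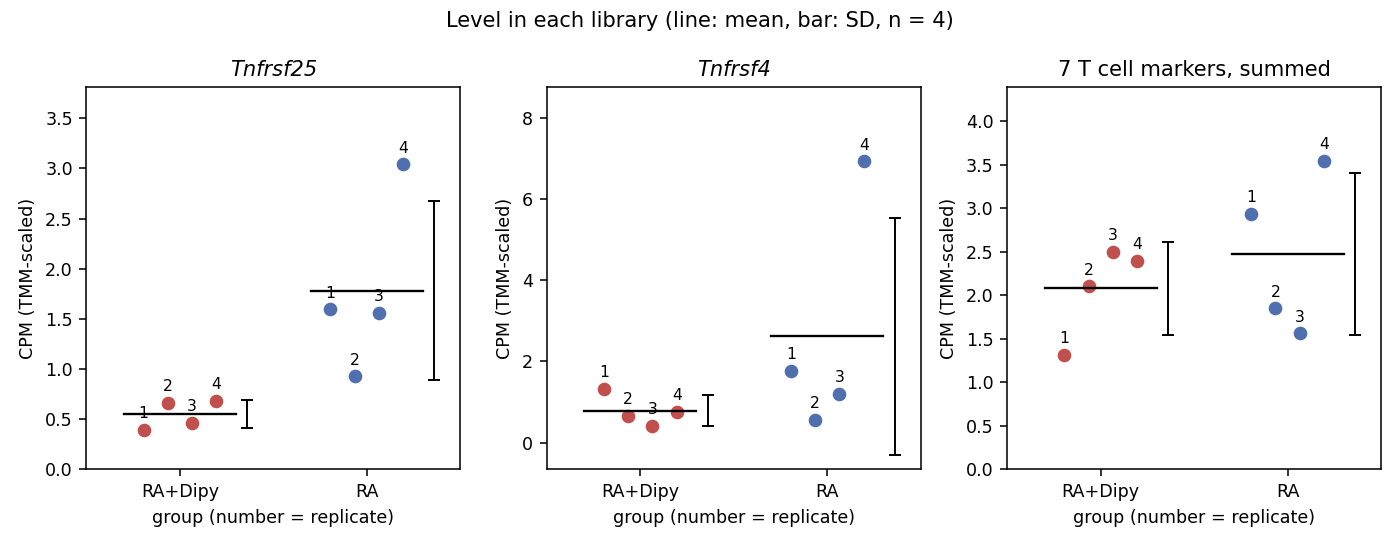
CPM of Tnfrsf25, of Tnfrsf4 and of the 7 T cell markers summed, in each library (points numbered by replicate), with the mean (line) and SD (bar) of each group (n = 4 mice). For Tnfrsf25 all RA+Dipy points are under all RA points; for Tnfrsf4 the groups overlap and RA replicate 4 stands far above the rest at 6.93 CPM.

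Both genes lie on the plus strand of distal mouse chromosome 4, in a stretch that holds 7 members from Tnfrsf1b to Tnfrsf18 (chr4:145213463-156028895, GRCm38, GENCODE vM21). Tnfrsf25 spans chr4:152115934-152120119 and Tnfrsf4 chr4:156013843-156016612, and neither shares exon bases with another gene in that annotation. Of the other members of the stretch, Tnfrsf1b was at -0.13 on the log2 scale (SE 0.30) and Tnfrsf8, Tnfrsf9, Tnfrsf14 and Tnfrsf18 were below the filter. The promoters of the pair with the lowest unadjusted p are shown because they let the sequence be read beside the values. Each runs from 250 bases before to 50 bases after a RefSeq transcript start (GRCm38.p6, plus strand, 5′ to 3′). Capitals mark matches, on either strand, to NF-kB, to the CRE core TGACG, or to the AP-1 site TGANTCA. The windows are chr4:152115684-152115983 and chr4:152116093-152116392 for the first and second start of Tnfrsf25, and chr4:156013445-156013744 for Tnfrsf4.
Tnfrsf25 start 1: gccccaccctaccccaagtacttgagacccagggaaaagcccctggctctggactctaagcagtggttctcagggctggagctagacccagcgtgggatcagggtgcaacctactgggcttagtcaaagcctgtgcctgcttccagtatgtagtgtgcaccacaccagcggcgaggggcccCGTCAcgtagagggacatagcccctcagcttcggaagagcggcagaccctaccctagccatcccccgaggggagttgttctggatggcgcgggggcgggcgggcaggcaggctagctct
Tnfrsf25 start 2: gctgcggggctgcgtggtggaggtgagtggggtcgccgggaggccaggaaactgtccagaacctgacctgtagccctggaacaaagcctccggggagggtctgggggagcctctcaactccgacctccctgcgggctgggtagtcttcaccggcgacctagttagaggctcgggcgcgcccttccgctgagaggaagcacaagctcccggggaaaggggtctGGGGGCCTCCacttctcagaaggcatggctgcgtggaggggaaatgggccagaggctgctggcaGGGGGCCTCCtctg
Tnfrsf4: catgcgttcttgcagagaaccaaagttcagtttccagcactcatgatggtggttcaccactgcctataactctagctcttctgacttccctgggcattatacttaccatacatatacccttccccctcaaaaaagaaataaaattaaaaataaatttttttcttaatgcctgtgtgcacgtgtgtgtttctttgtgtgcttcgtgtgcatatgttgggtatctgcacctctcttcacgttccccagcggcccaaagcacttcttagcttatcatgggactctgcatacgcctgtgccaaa
The first Tnfrsf25 window holds 1 CRE core, read on the minus strand, and the second holds 2 NF-kB matches. The Tnfrsf4 window holds none of the 3 motifs. It ends upstream of the GENCODE start of the gene at chr4:156013843, and the bases next to that start were not searched. Of 32851 promoters in the RefSeq table, 8.46% hold an NF-kB match, 20.8% a CRE core, 7.81% an AP-1 site and 72.3% an E-box (CANNTG, searched as well but not in capitals). RefSeq promoters were matched for 27 of the 34 members, as 31 windows, of which 4 hold an NF-kB match, 4 a CRE core, 6 an AP-1 site and 25 an E-box. A match is a run of letters and not a measured binding site.

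The gene for TNF itself was barely counted: Tnf had 1, 1, 2 and 3 counts in RA+Dipy, against 7, 1, 0 and 9 counts in RA. Its receptors were measured well. Tnfrsf1a, the widely made death-domain receptor TNFR1, read 28.1, 32.3, 36.6 and 34.4 CPM in RA+Dipy, against 29.9, 28.3, 31.1 and 17.3 CPM in RA. A total of 3 RA+Dipy libraries lay above every RA library and RA replicate 4 was far below the rest, but the groups overlapped. Means were 32.8 ± 3.60 CPM in RA+Dipy and 26.7 ± 6.33 CPM in RA (log2 fold change 0.30, SE 0.25, edgeR adjusted p 0.882). Tnfrsf1b, the TNFR2 receptor of immune and endothelial cells, read 8.91, 5.39, 7.43 and 7.56 CPM in RA+Dipy, against 6.64, 5.73, 7.46 and 12.4 CPM in RA, with RA replicate 4 highest of the 8 (log2 fold change -0.13, SE 0.30). The lymphotoxin genes next to Tnf on chromosome 17 were also below the filter. Ltb had 0, 14, 2 and 5 counts in RA+Dipy and 13, 7, 9 and 17 in RA, and Lta had 4, 11, 4 and 4 counts in RA+Dipy and 6, 4, 2 and 1 in RA.

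Tnfsf12 and Tnfrsf12a encode TWEAK and its receptor Fn14, whose level is known to rise in denervated muscle. Tnfsf12 read 18.9, 11.0, 10.4 and 7.88 CPM in RA+Dipy, against 11.9, 6.87, 13.4 and 19.4 CPM in RA. The groups overlapped over nearly their whole range, and the log2 fold change was -0.10 (SE 0.36). Tnfsf12 shares 731 exon bases, 48.3% of its exon length, with the readthrough gene Tnfsfm13 on the same strand, so part of its reads cannot be assigned with certainty. Tnfrsf12a read 23.1, 26.5, 17.5 and 18.4 CPM in RA+Dipy, against 27.7, 16.1, 21.9 and 37.9 CPM in RA. Its log2 fold change was -0.27 (SE 0.30) with all libraries and -0.02 without RA replicate 4, the highest library. Neither gene of the axis differed beyond the spread between mice (edgeR adjusted p 0.956 for Tnfsf12 and 0.885 for Tnfrsf12a).

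RANK and its soluble decoy osteoprotegerin control osteoclast formation in bone. Tnfrsf11a, the gene for RANK, averaged 0.933 ± 0.161 CPM in RA+Dipy and 0.741 ± 0.331 CPM in RA. Tnfrsf11b, the gene for osteoprotegerin, read 0.660, 0.369, 0.847 and 0.560 CPM in RA+Dipy, against 0.552, 0.427, 0.547 and 0.169 CPM in RA. These rest on 2 to 28 counts per library, and RA replicate 4 was the lowest. Both had higher means in RA+Dipy, with log2 fold changes of 0.38 (SE 0.38) for Tnfrsf11a and 0.43 (SE 0.42) for Tnfrsf11b, each about the size of its error. The shared ligand RANKL, Tnfsf11, had 1, 0, 0 and 4 counts in RA+Dipy and 1, 0, 0 and 2 in RA.

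Tnfsf10 encodes TRAIL, which triggers apoptosis through death receptors. It read 3.37, 5.43, 6.54 and 7.60 CPM in RA+Dipy, against 2.62, 7.05, 4.22 and 1.44 CPM in RA. It had the highest positive fold change among the tested members, 0.57 (SE 0.45, edgeR unadjusted p 0.230, adjusted p 0.882), and the groups overlapped. Without RA replicate 2 the log2 fold change was 1.04, and without RA replicate 4 it was 0.34. Tnfrsf10b, the death receptor for TRAIL in mice, averaged 1.75 ± 0.600 CPM in RA+Dipy and 1.79 ± 0.552 CPM in RA. Tnfrsf22 and Tnfrsf23, mouse decoy receptors for TRAIL, stand side by side with Tnfrsf26 on chromosome 7. How well the reads of these genes can be told apart was not tested.

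Tnfrsf23 read 3.76, 4.28, 4.12 and 5.20 CPM in RA+Dipy, against 4.65, 3.42, 3.40 and 10.9 CPM in RA. Tnfrsf22 read 1.78, 2.22, 2.19 and 2.72 CPM in RA+Dipy, against 1.99, 2.56, 2.07 and 5.07 CPM in RA. RA replicate 4 was far above the rest for both. Their log2 fold changes were -0.34 (SE 0.39) for Tnfrsf23 and -0.36 (SE 0.35) for Tnfrsf22 with all libraries, and 0.19 and 0.04 without RA replicate 4, so the direction rested on that library.

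Tnfsf13b encodes BAFF, a survival factor of B cells made by myeloid and stromal cells, and Tnfrsf13b encodes TACI, one of its receptors. Tnfsf13b averaged 0.856 ± 0.292 CPM in RA+Dipy and 0.759 ± 0.0931 CPM in RA. Tnfrsf13b averaged 0.694 ± 0.127 CPM in RA+Dipy and 0.639 ± 0.232 CPM in RA. The fold changes of 0.21 (SE 0.34) and 0.17 (SE 0.36) were smaller than their errors. The other BAFF and APRIL receptors, Tnfrsf13c and Tnfrsf17, stayed at 9 counts or fewer in each library. APRIL, Tnfsf13, had 1 to 6 counts in RA+Dipy and 2 to 10 in RA, and 60.0% of its exon length is shared with Tnfsfm13.

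Tnfrsf21, the death-domain receptor DR6, was the steadiest of the abundant members. It read 24.0, 28.1, 28.6 and 27.6 CPM in RA+Dipy, against 25.5, 28.4, 23.0 and 17.2 CPM in RA, a log2 fold change of 0.20 (SE 0.23). Tnfrsf19, the receptor TROY, read 5.21, 11.6, 11.5 and 11.3 CPM in RA+Dipy, against 8.51, 10.1, 8.79 and 7.44 CPM in RA. Apart from RA+Dipy replicate 1, which was the lowest of all 8, every RA+Dipy library was above every RA library. With that library left out, 623 of 12894 tested genes had such a gap in the higher direction (8.59% in either direction). With all libraries the log2 fold change of Tnfrsf19 was 0.19 (SE 0.29), and the groups did not differ beyond the spread between mice (edgeR adjusted p 0.893).

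**Figure D3:**
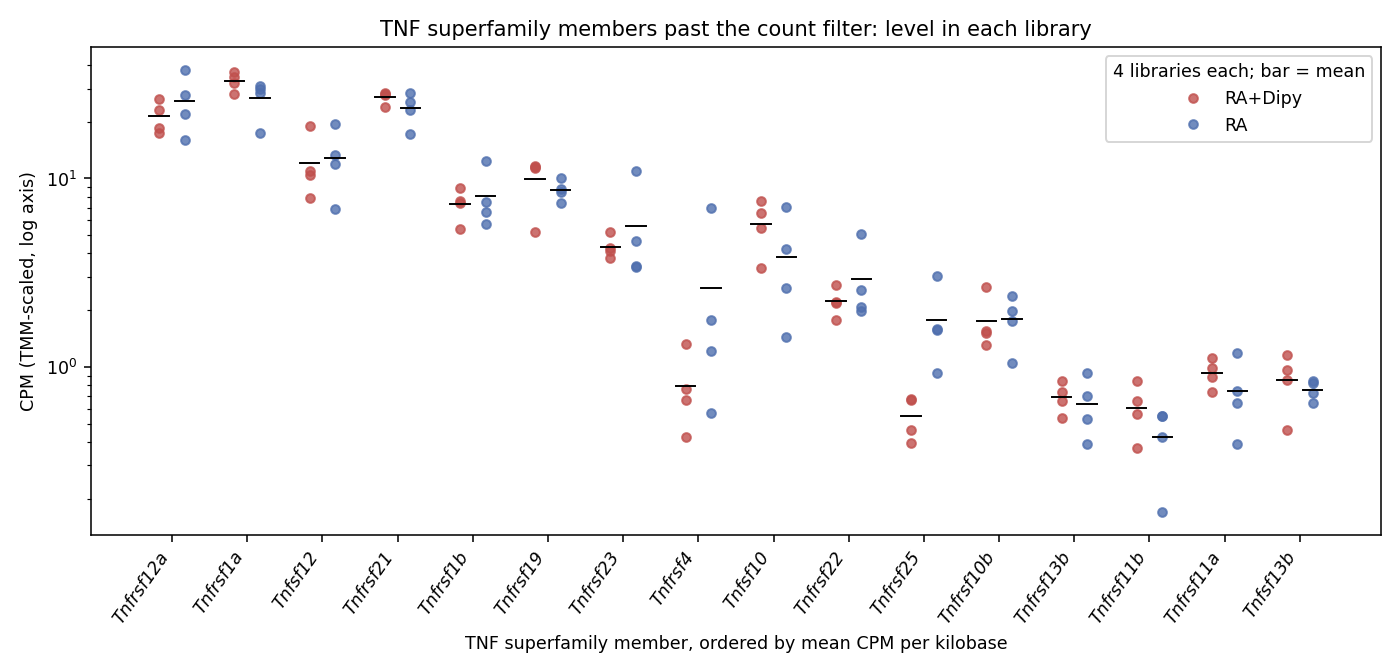
CPM, on a log axis, of the 16 tested members in each of the 4 RA+Dipy and 4 RA libraries, with the group means as bars, ordered by level per kilobase. Tnfrsf25 is the sole member whose RA+Dipy points all lie under its RA points.

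Levels per kilobase of exon set the tested members in a descending order with a single clear step. Over all 8 libraries the highest were Tnfrsf12a at 12.2 ± 3.67 CPM per kb, Tnfrsf1a at 11.5 ± 2.24 CPM per kb, Tnfsf12 at 8.22 ± 3.04 CPM per kb and Tnfrsf21 at 6.16 ± 0.947 CPM per kb (SD, n = 8). The place of Tnfsf12 in this order is less certain, since 48.3% of its exon length is shared with Tnfsfm13. The lowest library of Tnfrsf21, at 4.20 CPM per kb, lay above the highest library of the next gene, Tnfrsf1b, at 3.25 CPM per kb. All other neighbours in the order overlapped. Tnfrsf1b (2.01 CPM per kb) and Tnfrsf19 (1.96 CPM per kb) came next, then Tnfrsf23 and Tnfrsf4 (1.25 ± 0.625 and 1.25 ± 1.58 CPM per kb). Without RA replicate 4, Tnfrsf4 averaged 0.703 CPM per kb (n = 7), below Tnfsf10 at 0.999 CPM per kb, and Tnfrsf1a stood above Tnfrsf12a (12.2 and 11.2 CPM per kb). Tnfrsf25 stood at 0.512 ± 0.389 CPM per kb and the lowest were Tnfrsf11a at 0.140 and Tnfsf13b at 0.118 CPM per kb.

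How far the members turned on single libraries was counted. RA replicate 4 gave the highest or lowest of the 8 values in 13 of the 16 tested members, 9 as highest and 4 as lowest, where it did so in 66.1% of all tested genes. RA+Dipy replicate 1 did so in 5 members and in 44.3% of genes. Without RA replicate 4, 13 members had positive and 3 negative fold changes, and 56.3% of all genes had positive ones. With both libraries left out, 11 were positive and 5 negative (51.3% positive over all genes). The groups then did not overlap for Tnfrsf19, Tnfrsf1a and Tnfsf13b (higher in RA+Dipy, as for 8.03% of genes) and for Tnfrsf25 (lower, as for 6.54% of genes). With all 8 libraries, 0 members and 1.46% of genes had such a gap in the higher direction. Tnfrsf19 and Tnfrsf25 then had an unadjusted p under 0.05 in edgeR, where 11.4% of the 12796 genes tested did.

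**Figure D4:**
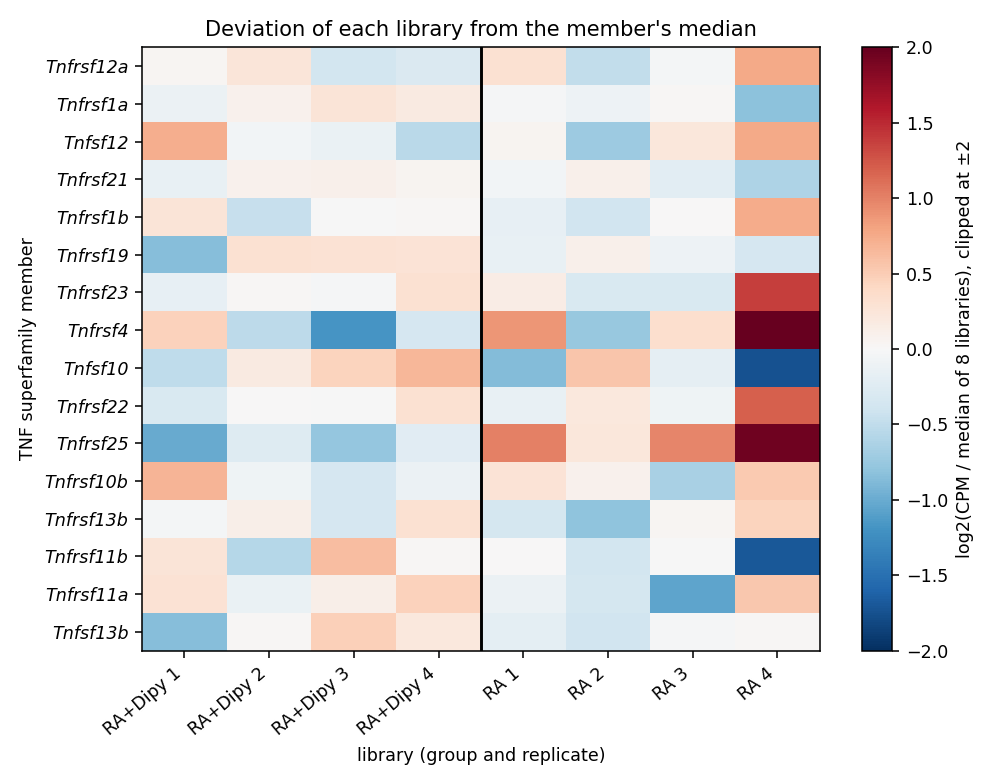
Deviation of each tested member from its median over the 8 libraries, in log2 units, by library (red above, blue below, colours clipped at 2 units either way). RA replicate 4 carries the most values at either end, being highest or lowest in 13 of 16 members.

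The 18 untested members reached at most 22 counts in any library, and 11 of them never reached 10 counts. A total of 7 had no library at 0. Tnfsf9, the ligand of 4-1BB, had 9, 5, 7 and 6 counts in RA+Dipy and 22, 7, 9 and 0 in RA. Tnfrsf14, the HVEM receptor, had 8, 6, 20 and 6 counts in RA+Dipy and 9, 9, 8 and 15 in RA. Tnfrsf26 had 10, 8, 5 and 8 counts in RA+Dipy and 20, 12, 6 and 3 in RA. Tnfsf18, the GITR ligand, had 1, 2, 2 and 0 counts in RA+Dipy and 0 in every RA library. All are under the 3 counts that a count of 0 allows, so no fold is given (edgeR with no filter, unadjusted p 0.0299, adjusted p 0.833). Tnfrsf18 (GITR), Tnfrsf8 (CD30), Tnfrsf9 (4-1BB), Tnfsf8 and Tnfsf14 (LIGHT) all stayed under 10 counts per library. Fitted with no filter in edgeR, Lta had a log2 fold change of 1.12 with no overlap between the groups, and its unadjusted p was 0.0944 and its adjusted p 0.833. At 1 to 11 counts per library, no difference in Lta or the other untested members was detectable at this depth.

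**Figure D5:**
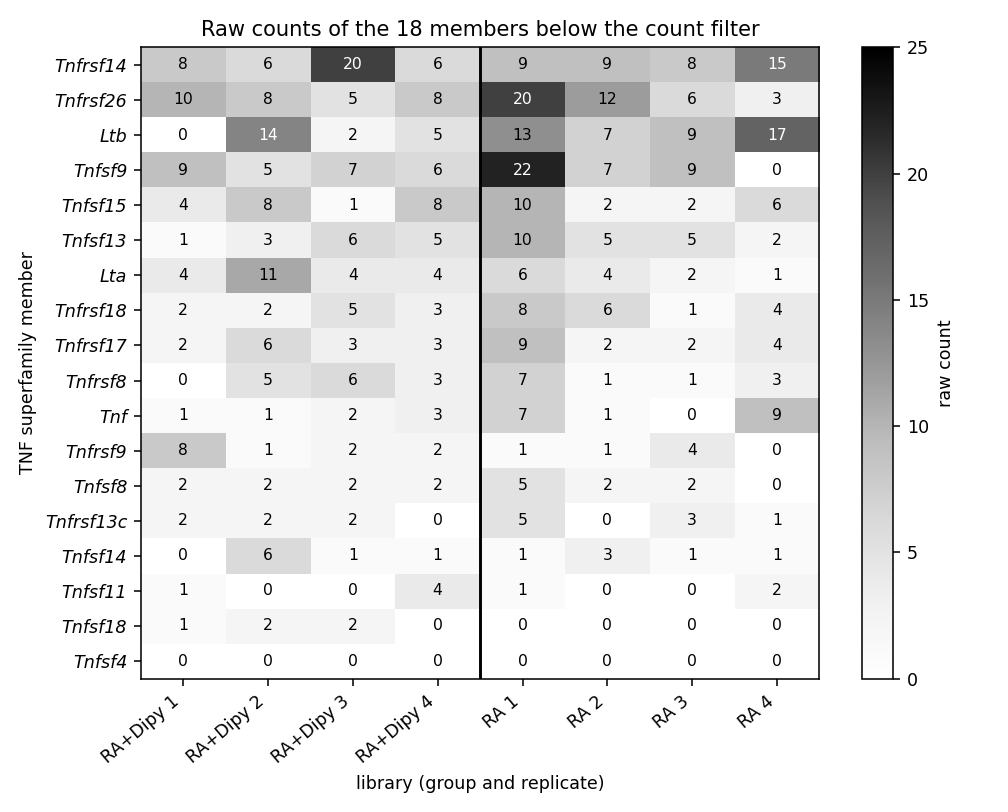
Raw counts of the 18 members below the filter (down the side) in each library (along the bottom). The highest is 22 counts (Tnfsf9 in RA replicate 1), and Tnfsf4 is at 0 in all 8 libraries.

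Family members under other symbols gave a like picture. Of 12, the 8 that passed the filter held 5 positive and 3 negative fold changes, with a median of 0.06 and none at an unadjusted p under 0.05 in edgeR (0 called). Fas averaged 4.75 ± 1.38 CPM in RA+Dipy and 3.40 ± 1.96 CPM in RA. Eda2r, a receptor for ectodysplasin A2, averaged 13.4 ± 2.40 CPM in RA+Dipy and 9.11 ± 6.84 CPM in RA. Their spreads were large and the groups overlapped. Cd40lg, Fasl, Cd70 and Edar were below the filter.

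Among the 37 adaptors, ligases and kinases that carry the signal inward, 36 were tested and edgeR called none. Fold changes were positive for 23 and negative for 13, with a median of 0.13, where 52.2% of all tested genes were positive. In edgeR 1 of the 36 had an unadjusted p under 0.05, as did 3.83% of all tested genes. Map3k14, the NIK kinase of the non-canonical NF-kB route, averaged 5.34 ± 1.26 CPM in RA+Dipy and 8.14 ± 2.79 CPM in RA (log2 fold change -0.61, SE 0.31, edgeR unadjusted p 0.0798).

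NF-kB subunits and inhibitors split evenly, 5 positive and 5 negative of 10, with a median of -0.09. Nfkb2 averaged 16.2 ± 2.98 CPM in RA+Dipy and 29.9 ± 24.9 CPM in RA, with RA replicate 4 at 67.0 CPM. Without both libraries that stood apart the log2 fold change of Nfkb2 was 0.01, against -0.88 with all. Nfkbib had the smallest p of the list, at a log2 fold change of -0.51 (SE 0.23, edgeR unadjusted p 0.0516, adjusted p 0.882). Without both libraries it was at -0.38. Among 28 genes known to be induced by TNF, 23 were tested, 11 with positive and 12 with negative fold changes and a median of -0.03. Without the libraries that stood apart, 17 of the 23 were positive, with a median of 0.15, where 51.3% of all genes were positive. Cxcl10, a chemokine, averaged 0.821 ± 0.153 CPM in RA+Dipy and 0.505 ± 0.0575 CPM in RA, with no overlap (log2 fold change 0.71, SE 0.31, edgeR unadjusted p 0.0468, adjusted p 0.882). Vcam1, an adhesion molecule of activated endothelium, averaged 5.37 ± 1.37 CPM in RA+Dipy and 3.74 ± 0.304 CPM in RA, also with no overlap. Its log2 fold change was 0.52 (SE 0.25, edgeR unadjusted p 0.0650, adjusted p 0.882). A gap between the groups in the higher direction was seen in these 2 of the 23 genes and in 1.46% of all tested genes.

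The 8 genes that shed or cleave family proteins split 4 and 4, with a median of 0.06. Adam17, which sheds TNF and its receptors, averaged 16.6 ± 1.62 CPM in RA+Dipy and 12.1 ± 3.16 CPM in RA. Furin, which cleaves the precursors of TWEAK, BAFF and APRIL, averaged 38.9 ± 7.50 CPM in RA+Dipy and 57.0 ± 12.5 CPM in RA, with every RA+Dipy library below every RA library. Its log2 fold change was -0.55 (SE 0.25, edgeR unadjusted p 0.0531). A gap between the groups in the lower direction was seen in 2 of the 8 genes, Furin and Rhbdf2, and in 1.26% of all tested genes. Of the 4 muscle ubiquitin ligases tied to TNF and TWEAK, all 4 had positive fold changes, with a median of 0.20, and none passed the test. Among all tested genes 52.2% had positive fold changes. Trim63 averaged 189 ± 53.1 CPM in RA+Dipy and 173 ± 9.52 CPM in RA, and Fbxo32 averaged 191 ± 85.5 CPM in RA+Dipy and 157 ± 77.2 CPM in RA. Without RA+Dipy replicate 2, which read 319 CPM, the log2 fold change of Fbxo32 was -0.08.

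Markers of other cells were read in the same libraries, since several members are known from immune and stromal cells. The 7 macrophage markers all had positive fold changes, with sums of 112 to 225 CPM in RA+Dipy and 74.5 to 128 CPM in RA. The 5 Schwann cell markers all had negative fold changes, with sums of 114 to 203 CPM in RA+Dipy and 171 to 465 CPM in RA. The 5 adipocyte markers, all with positive fold changes, summed to 281 to 809 CPM in RA+Dipy and 212 to 344 CPM in RA. Several other lists were split. Positive and negative fold changes numbered 5 and 1 for endothelial, 4 and 1 for fibro-adipogenic progenitor and 3 and 1 for mural markers. They numbered 2 and 1 for mast cell markers and 1 and 1 for the tested dendritic cell markers. Over all tested genes 52.2% were positive. No marker in these lists was at 0 in all libraries. The part of cell content in the values of Tnfrsf1a, Tnfsf10 and the other members was not tested.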

How the data were processed

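Gene expression was measured by RNA sequencing of gastrocnemius from 8 mice, 1 library per mouse by the group sizes in the design text. The authors deposited raw read counts per protein-coding gene, 21859 lines per library. Reads of 100 bases, sequenced from 1 end, were trimmed with fastp 0.20.0, aligned to GRCm38.p6 with STAR 2.7.3a and counted by HTSeq without strand, per the submitters' processing notes; the submitters then used DESeq2 1.44.0. Without strand, reads of a gene and of an antisense partner cannot be told apart, and 5 of the 34 members share exon bases with a gene on the opposite strand. Which annotation release was counted is not stated in those sources, and the labels and the design text name different library kits. From the counts, 24 duplicated symbols were summed, leaving 21833, and genes were kept by filterByExpr with a minimum count of 10. RA+Dipy was set against RA by edgeR 4.0.16 and its quasi-likelihood test (R 4.3.3, TMM scaling, robust estimates, group as the sole term), two-sided, with Benjamini-Hochberg adjustment over all 12755 genes and a threshold of 0.05. The common biological coefficient of variation was 0.386. DESeq2 1.42.0, limma-voom of limma 3.58.1 with and without library weights, other scalings and filters, a replicate block and leaving out each library were the 17 alternatives; leaving out both libraries that stood apart was chosen after seeing the data. The steps were tested on simulated data. Members, gene lists and the genes named (every member, and up to 3 per list with the smallest p) were chosen with earlier results of these data known. Libraries of a group differed by a chi-square of at least 27.7 per degree of freedom, so no pair agreed within sampling noise. Positions and exon lengths come from GENCODE vM21 and promoters from RefSeq GRCm38.p6. The values of 1 pathway gene are not reported here.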

Additional observations from a re-analysis of the deposited data

Results flagged for a closer look

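A library that lay far from the 3 others of its group was found for 7 of the 66 groups of 4 examined over 33 genes; chance gives about 1 in 20, and 3 of the 7 were RA replicate 4. Among members, Tnfrsf19 read 5.21 CPM in RA+Dipy replicate 1, against 11.3 to 11.6 CPM in the other RA+Dipy libraries. Tnfrsf23 read 10.9 CPM in RA replicate 4, against 3.40 to 4.65 CPM in the other RA libraries. Among the pathway genes, Cxcl10 read 0.594 CPM in RA+Dipy replicate 1, against 0.880 to 0.924 CPM in the other RA+Dipy libraries. Fbxo32 read 319 CPM in RA+Dipy replicate 2, against 145 to 153 CPM in the other RA+Dipy libraries. In RA replicate 4, Nfkb2 read 67.0 CPM, against 15.3 to 21.4 CPM in the other RA libraries, and Furin read 75.5 CPM, against 48.7 to 52.9 CPM. Relt, a TNF receptor family gene, read 23.3 CPM in RA replicate 1, against 17.8 to 18.3 CPM in the other RA libraries.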

How the results depend on the processing

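Over 556 fold changes recomputed under the alternatives for 33 genes, 25 changed sign, and 23 genes did so under none; the causes were not tested. Limma-voom with library weights called 133 genes and 1 member, Tnfrsf25; edgeR in the other settings, DESeq2 and unweighted limma-voom called 0 members. Members with an unadjusted p under 0.05 numbered 1 with unweighted limma-voom (2.97% of all genes), 5 with library weights (28.5%), and 1 to 3 when each library was left out (1.38% to 9.21%). Members whose groups did not overlap numbered 2 with no filter (2.62% of all genes), 4 without both libraries that stood apart (14.6%), and 1 to 4 when each library was left out (3.44% to 12.3%; the 4 came without RA+Dipy replicate 1, at 8.59%), against 1 and 2.72% with all libraries.

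No source used here says that the replicate numbers pair mice. Correlations of deviations from the group means between same-numbered libraries were -0.196, 0.112, 0.148 and -0.266. RA replicate 4 and RA+Dipy replicate 1 shift those means, so these correlations cannot settle whether mice were paired. With the replicate number as a block in edgeR, 1 member, Tnfrsf25, had an unadjusted p under 0.05 and 165 genes did, against 488 without it.

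Sign changes with library weights were 0.015 for Tnfrsf1b, 0.12 for Tnfrsf22, 0.16 for Tnfrsf23, -0.015 for Fas, 0.022 for Nfkb2 and -0.080 for Trim63. Without both libraries that stood apart they were 0.050 for Tnfrsf1b, 0.12 for Tnfrsf22, 0.25 for Tnfrsf23, -0.032 for Fas and 0.0062 for Nfkb2. Upper-quartile scaling gave 0.026 for Tnfrsf10b; it also moved the genes with an unadjusted p under 0.05 to 289 higher and 173 lower, against 214 and 274. With each library left out in turn, log2 fold changes ran from -0.28 to 0.12 for Tnfrsf10b, -0.0051 to 0.37 for Tnfrsf13b, -0.26 to 0.16 for Tnfrsf1b, -0.51 to 0.035 for Tnfrsf22, -0.52 to 0.19 for Tnfrsf23, -0.39 to 0.18 for Tnfsf12, -0.081 to 0.68 for Fbxo32 and -0.061 to 0.23 for Trim63.

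Depth limits the 18 untested members, most of all in RA replicate 4, where 3 counts are 0.254 CPM. P-values set the difference between the groups against the spread between mice within them. With 4 mice per group, changes smaller than that spread go undetected.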
